A study of Mus musculus with 67 samples.

Results

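The comparison described here set p0-1 against p3 neural progenitors (NPs) at day 6 of differentiation, the dorsal and ventral ends of the sorted series. It rested on 9 of the 67 samples, chosen by their labels alone: 5 samples of p0-1, with 2 from 0 nM and 3 from 10 nM SAG, and 4 samples of p3, with 2 from 100 nM and 2 from 500 nM SAG. The cells were HM1 mouse embryonic stem cells driven toward spinal cord identity and given 100 nM retinoic acid and SAG, an agonist of Smoothened, from day 3. All samples were assayed by CaTS-ATAC, in which a transposase cuts the open chromatin of fixed cells, which are then stained for intracellular transcription factors (TFs) and sorted. Each sample held a fixed number of sorted SOX2+ cells, p0-1 being PAX6+ NKX6.1- and p3 being NKX2.2+ OLIG2-, so that p0 and p1 were not separated from each other. By the study's methods, replicates were independent differentiations, all of this 1 line. No p0-1 sample came from 100 or 500 nM and no p3 sample from 0 or 10 nM, so cell type and SAG concentration cannot be told apart.

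In the ventral neural tube, Sonic hedgehog (Shh) from the notochord and floor plate sets up stripes of progenitors along the dorsoventral axis. High signal gives p3, which expresses Nkx2-2 and Nkx2-9 and makes V3 interneurons. Low signal leaves p0 and p1, which express Pax6, Irx3 and the Dbx genes and make V0 and V1 interneurons. Class II TFs such as the Nkx and Olig proteins and class I TFs such as PAX6, IRX3 and DBX repress each other across the boundaries between stripes. FOXA TFs, which can bind closed chromatin, are known from endoderm and floor plate. An accessible element is a stretch of open chromatin that may act as a promoter, enhancer or silencer, and it is named below by the gene whose transcription start site (TSS) is nearest, which need not be its target.

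The elements with the largest differences are shown first, as the central 300 bases on the plus strand of GRCm38, the same assembly as the mm10 of the deposited coordinates. The 3 with the largest excess in p3 were chr9:116389008-116389307 near Gm4668, chr5:146223984-146224283 near Rnf6 and chr7:89717858-89718157 in an intron of Me3. Capitals mark the short FOX motif searched, TGTTTAC or TGTTTGC on either strand, of which the first and second held 2 and the third held 1. The element annotated to Foxa2 with the largest excess, chr2:147888863-147889162, held 0 and is printed beside them because Foxa2 encodes the FOXA TF of the floor plate.
Gm4668: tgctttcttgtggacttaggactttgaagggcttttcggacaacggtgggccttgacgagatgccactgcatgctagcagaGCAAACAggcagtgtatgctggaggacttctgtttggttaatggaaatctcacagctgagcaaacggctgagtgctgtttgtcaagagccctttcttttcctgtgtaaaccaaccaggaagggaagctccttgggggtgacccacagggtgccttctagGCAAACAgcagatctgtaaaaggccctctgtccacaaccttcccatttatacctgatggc
Rnf6: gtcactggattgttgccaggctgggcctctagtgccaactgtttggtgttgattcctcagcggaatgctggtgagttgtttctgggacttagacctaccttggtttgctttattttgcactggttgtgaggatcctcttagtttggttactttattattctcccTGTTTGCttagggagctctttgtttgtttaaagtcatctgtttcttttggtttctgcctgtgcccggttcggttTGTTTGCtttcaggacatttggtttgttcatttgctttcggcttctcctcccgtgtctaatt
Me3: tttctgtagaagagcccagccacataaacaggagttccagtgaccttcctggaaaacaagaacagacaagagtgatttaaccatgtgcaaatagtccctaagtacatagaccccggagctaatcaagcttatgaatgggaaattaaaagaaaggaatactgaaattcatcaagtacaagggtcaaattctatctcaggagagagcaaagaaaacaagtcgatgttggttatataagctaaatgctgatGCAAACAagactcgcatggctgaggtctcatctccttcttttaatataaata
Foxa2: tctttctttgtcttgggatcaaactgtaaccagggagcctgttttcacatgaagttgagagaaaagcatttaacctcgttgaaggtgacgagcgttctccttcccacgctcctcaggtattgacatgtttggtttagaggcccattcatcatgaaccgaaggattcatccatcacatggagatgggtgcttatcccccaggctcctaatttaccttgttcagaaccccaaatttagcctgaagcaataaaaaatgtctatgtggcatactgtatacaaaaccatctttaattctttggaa

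The 3 with the largest deficit in p3 were chr7:49696466-49696765 near Dbx1, chr2:169181634-169181933 near the noncoding gene 1700017J07Rik and chr16:74822527-74822826 in an intron by the annotation of Robo2. They are followed by chr2:105720160-105720459, in an intron and the most reduced of those annotated to Pax6. Here capitals mark the SOX motif ACAATGG or ACAAAGG, the POU octamer ATGCAAAT and the homeodomain core TAATTA, on either strand. The Dbx1 element held 1 SOX match, the Robo2 element 2 SOX matches and 1 octamer, the Pax6 element 2 homeodomain cores, and the 1700017J07Rik element held 0 of the 3 kinds.
Dbx1: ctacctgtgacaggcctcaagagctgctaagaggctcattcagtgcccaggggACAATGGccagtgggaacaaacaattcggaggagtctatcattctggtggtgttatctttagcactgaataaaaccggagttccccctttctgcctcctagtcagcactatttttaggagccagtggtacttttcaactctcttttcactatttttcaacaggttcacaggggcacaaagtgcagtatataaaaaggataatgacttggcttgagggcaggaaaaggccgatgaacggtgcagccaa
1700017J07Rik: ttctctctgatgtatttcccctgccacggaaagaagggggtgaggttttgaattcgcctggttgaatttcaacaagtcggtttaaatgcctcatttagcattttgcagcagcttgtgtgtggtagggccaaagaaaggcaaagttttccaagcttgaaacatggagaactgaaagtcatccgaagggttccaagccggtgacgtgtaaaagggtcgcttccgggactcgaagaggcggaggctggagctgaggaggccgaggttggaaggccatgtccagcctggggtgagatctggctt
Robo2: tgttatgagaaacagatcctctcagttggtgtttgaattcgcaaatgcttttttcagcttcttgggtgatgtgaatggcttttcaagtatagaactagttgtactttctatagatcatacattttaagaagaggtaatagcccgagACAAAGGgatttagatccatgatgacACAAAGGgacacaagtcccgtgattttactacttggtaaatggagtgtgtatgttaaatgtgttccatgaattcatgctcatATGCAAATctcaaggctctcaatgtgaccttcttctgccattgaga
Pax6: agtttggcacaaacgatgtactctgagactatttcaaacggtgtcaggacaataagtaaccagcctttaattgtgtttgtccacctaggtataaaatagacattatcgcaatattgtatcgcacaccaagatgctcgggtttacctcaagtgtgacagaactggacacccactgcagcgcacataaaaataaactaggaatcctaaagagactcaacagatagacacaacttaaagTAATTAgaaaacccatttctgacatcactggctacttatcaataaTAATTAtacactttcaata

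The reads in elements numbered 12529289 to 26532263 per sample, the fewest in p3 at 100 nM replicate 2. Across the tested elements the correlation of pairs of samples was 0.900 to 0.990 within p0-1, 0.931 to 0.987 within p3 and 0.543 to 0.736 between them. The samples numbered 3 in the labels stood apart from the others in both populations at elements called higher in p3. The median count there was 46.6 and 43.6 in the p0-1 samples numbered 3, at 0 and 10 nM. It was 33.0, 28.7 and 30.3 in the other p0-1 samples. Of the elements called higher in p3, both p3 samples numbered 3 lay above both numbered 2 at 1544 of 2022 (76.4%), against 11434 of 32580 tested elements (35.1%). They lay below at 152 (7.52%), against 8990 (27.6%). Counts were therefore repeated within the samples numbered 1 or 2 and within those numbered 3. The median log2 fold change of all tested elements was -0.09.

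At day 6, accessibility differed between p0-1 and p3 at 12.6% of tested elements, few of them promoters. Of 32580 elements with a mean above 100 normalized counts (reads divided by the authors' size factors), 4104 were called (12.6%), 2022 higher in p3 (6.21%) and 2082 lower (6.39%). An element was called when limma's test on the deposited log2-like values gave an adjusted p under 0.01 and the log2 ratio of mean counts, each raised by 1, exceeded 2 in size. In such pooled cells, fewer open cells and less open chromatin per cell cannot be told apart. The median log2 fold change was 2.93 for the elements higher in p3 and -3.10 for those lower. The 5 samples of p0-1 and the 4 of p3 did not overlap at 4083 of the 4104 called elements, and at 11464 of all tested elements (35.2%). With the samples numbered 1 or 2 alone, 1446 elements were higher and 1898 lower, and with those numbered 3 alone 2475 and 2077. The subset numbered 3 held the same replicate number throughout, as did p3 in the other subset. There the spread behind the calls lay only between SAG concentrations, not between differentiations. Of the 2022 higher elements, 1008 were called the same way in both subsets, as were 1469 of the 2082 lower ones, and 0 were called the opposite way in either. Both subsets are parts of the samples that gave the calls, which favors shared calls, so these counts are a description.

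**Figure D1:**
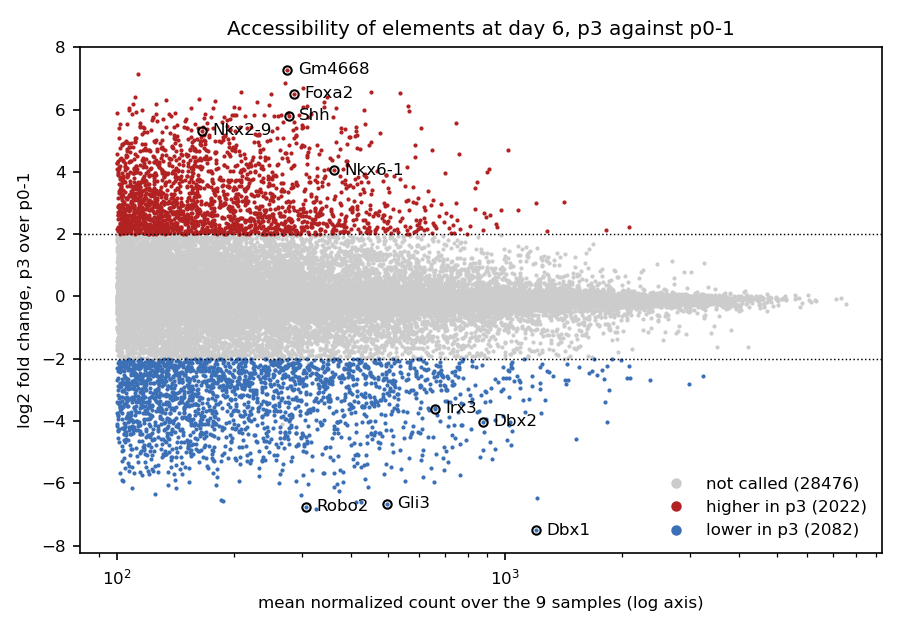
Mean normalized count over the 9 samples (horizontal, log axis) against log2 fold change of p3 over p0-1 (vertical) for the 32580 tested elements, red where called higher in p3 (2022), blue where called lower (2082) and grey where not called, with dotted lines at 2 and -2. The circled Dbx1 element lies lowest, at -7.51, and the circled Gm4668 element highest, at 7.27.

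Promoters contributed few of these differences. Of 6885 tested elements annotated as promoter-TSS, 27 were higher in p3 and 20 lower, which is 0.683% called, against 20.4% of 10059 intergenic and 16.3% of 11483 intronic elements. The median distance to the nearest TSS was 48205 bp for elements higher in p3 and 67925 bp for those lower, against 10494 bp for all tested elements. Elements higher in p3 had a median GC content of 46.1% and those lower 44.8%, against 52.0% overall. Their median widths were 1031 and 1023 bp, against 1321 bp. The 2022 higher elements were nearest to 1664 genes and the 2082 lower ones to 1638, so most genes with a called element had few. Foxa2 had the most elements higher in p3, 10 of 14 tested, followed by Auts2 with 6 of 18. Wwox had the most lower, 7 of 16.

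The largest excesses in p3 came from elements that were nearly closed in p0-1, which a ranking by ratio favors. The Gm4668 element (chr9:116388783-116389531) held 3.53, 0.991, 3.38, 1.16 and 5.81 normalized counts in the p0-1 samples, listed throughout as 0 nM replicates 2 and 3 and then 10 nM replicates 1, 2 and 3. It held 330, 709, 381 and 1036 in the p3 samples, listed as 100 nM replicates 2 and 3 and then 500 nM replicates 2 and 3, a log2 fold change of 7.27 (adjusted p = 4.54e-07). Both p3 samples numbered 3 were the highest, and all 4 were far above every p0-1 sample. The element 2676 bp from the TSS of Rnf6, which encodes a ubiquitin ligase, held 1.18, 0, 0.845, 0 and 1.94 in p0-1 and 213, 282, 209 and 315 in p3 (log2 fold change 7.16, adjusted p = 1.62e-07). The intronic element at Me3, a mitochondrial malic enzyme, held 7.06, 1.98, 4.23, 2.33 and 5.81 in p0-1 and 317, 709, 334 and 1064 in p3 (log2 fold change 6.84). The next 5 in size, with log2 fold changes of 6.50 to 6.69, were annotated to Frmd4b, Plekhb2, D030024E09Rik, Mir466f-4 and Foxa2. In all 8, the lowest p3 sample was above the highest p0-1 sample, which their choice by size of difference favors. The groups did not overlap at 4083 of the 4104 called elements. Of all elements higher in p3, 164 had a log2 fold change above 5, and of those lower 160 were below -5.

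The largest deficits in p3 were led by an element 59780 bp upstream of Dbx1, the homeobox gene that marks p0 progenitors (chr7:49696204-49697027). It held 2027, 1783, 2117, 2458 and 2373 normalized counts in p0-1 and 21.4, 12.2, 4.62 and 4.86 in p3, a log2 fold change of -7.51 (adjusted p = 5.47e-08). The deposited-scale difference was -6.72 with a standard error of 0.23, and p2 and pMN at day 6 held 560 ± 126 (SD, n = 6) and 194 ± 103 (SD, n = 4) counts. The element near 1700017J07Rik held 489, 535, 609, 637 and 647 in p0-1 and 4.95, 8.14, 2.31 and 0.971 in p3 (log2 fold change -6.84). The Robo2 element, near the gene of an axon guidance receptor for Slit proteins, held 240, 243, 821, 741 and 705 in p0-1 and 9.89, 2.03, 3.46 and 0.971 in p3 (log2 fold change -6.76, adjusted p = 2.73e-06). At Robo2 the 0 nM samples of p0-1 lay below the 10 nM samples, though all were above p3. The other 5 of the 8 were annotated to Gli3, Lrrtm1, Gm20755, Kcnq5 and Suclg2, with log2 fold changes of -6.65 to -6.54.

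Elements at the class II genes of the ventral neural tube were called higher in p3 more often than lower. Of 35 tested elements at 5 genes (Nkx2-9, Nkx6-1, Nkx6-2, Olig1 and Olig2), 8 were higher in p3 (22.9%) and 2 lower (5.71%), with a median log2 fold change of 1.01. NKX2.2, NKX6.1 and OLIG2 were used to sort the cells, so that differences at their genes describe the sort. An element 5402 bp upstream of Nkx2-9, which encodes an NK2 homeodomain TF of p3, held 4.71, 11.9, 7.61, 6.99 and 9.68 in p0-1 and 381, 432, 282 and 354 in p3 (log2 fold change 5.31, adjusted p = 1.2e-07). The element at the Nkx2-9 TSS was open in every sample, with 647 ± 124 (SD, n = 5) in p0-1 and 1914 ± 224 (SD, n = 4) in p3. Its log2 fold change of 1.56 was under the threshold of size, and pMN at day 6 held 2091 ± 219 (SD, n = 4).

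All 5 called elements at Nkx6-1, a TF of the p2, pMN and p3 domains, were higher in p3. The largest difference, 167285 bp from its TSS, was 29.4, 28.7, 49, 48.9 and 67.8 counts in p0-1 against 744, 684, 830 and 770 in p3 (log2 fold change 4.05). At Olig2, the TF of pMN, an element 51954 bp upstream ran the other way, with 616, 740, 1040, 1030 and 1009 in p0-1 and 102, 104, 53.1 and 56.3 in p3 (log2 fold change -3.47, adjusted p = 9.97e-07). There p2 and pMN at day 6 held 1072 ± 97 (SD, n = 6) and 1188 ± 237 (SD, n = 4). The element nearest the Olig2 TSS held 408 ± 65.6 (SD, n = 5) in p0-1 and 1005 ± 109 (SD, n = 4) in p3, with a log2 fold change of 1.30 that was not called.

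The deposited annotation assigned no element to Nkx2-2 itself. RefSeq places Nkx2-2 at chr2:147176485-147195434, and 4 tested elements overlapped it, an assignment made after their values were seen. One of these, chr2:147183999-147190942, was called, with 676, 668, 902, 1003 and 706 counts in p0-1 and 3954, 3841, 3829 and 3203 in p3 (log2 fold change 2.23). The other 3 had log2 fold changes of 0.90, 1.43 and 1.51 and were not called. All 4 were also open in p0-1, where means were 204 to 791 counts.

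Class I genes showed the opposite balance. Of 80 tested elements at 12 genes of the Pax, Dbx, Irx and Prdm families, 18 were lower in p3 (22.5%) and 2 higher (2.50%), with a median log2 fold change of -0.52. Dbx1 had 4 of 7 tested elements lower, Irx3 had 3 of 19, and Dbx2 and Pax6 had 2 each, of 4 and 5. An intronic element 14834 bp from the TSS of Dbx2, a repressor of the p0 and p1 domains, held 1221, 1751, 1431, 1259 and 1846 in p0-1 and 102, 119, 69.3 and 72.8 in p3 (log2 fold change -4.03, adjusted p = 1.21e-07). An element 7582 bp from the TSS of Irx3 held 1231, 780, 1298, 1329 and 938 in p0-1 and 97.3, 86.5, 119 and 61.2 in p3 (log2 fold change -3.60). Neither gene showed any overlap between the populations at these elements, as was so at 4083 of the 4104 called elements.

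PAX6 was a sorting marker of p0-1. Its element 44180 bp from the TSS held 693, 905, 1495, 1373 and 1709 in p0-1 and 196, 102, 132 and 86.4 in p3 (log2 fold change -3.25), and the element nearest its TSS held 3889 ± 318 (SD, n = 5) and 1696 ± 209 (SD, n = 4), with a log2 fold change of -1.20 that was not called. Upstream of Prdm12, a p1 gene, 2717 ± 381 (SD, n = 5) stood against 474 ± 50.6 (SD, n = 4), and near Prdm13, a gene of more dorsal progenitors, 2324 ± 158 against 365 ± 25.4. Their log2 fold changes were -2.52 and -2.67. An element in an intron of Pax3, a gene of dorsal progenitors, was also lower in p3, with 1113 ± 122 in p0-1 and 91.9 ± 18.8 in p3 (log2 fold change -3.58). The 2 class I elements higher in p3 were at Irx5 and Irx1. The Irx5 element, 117102 bp from the TSS, held 10.6, 33.7, 5.92, 11.6 and 18.4 in p0-1 and 165, 276, 174 and 391 in p3.

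**Figure D2:**
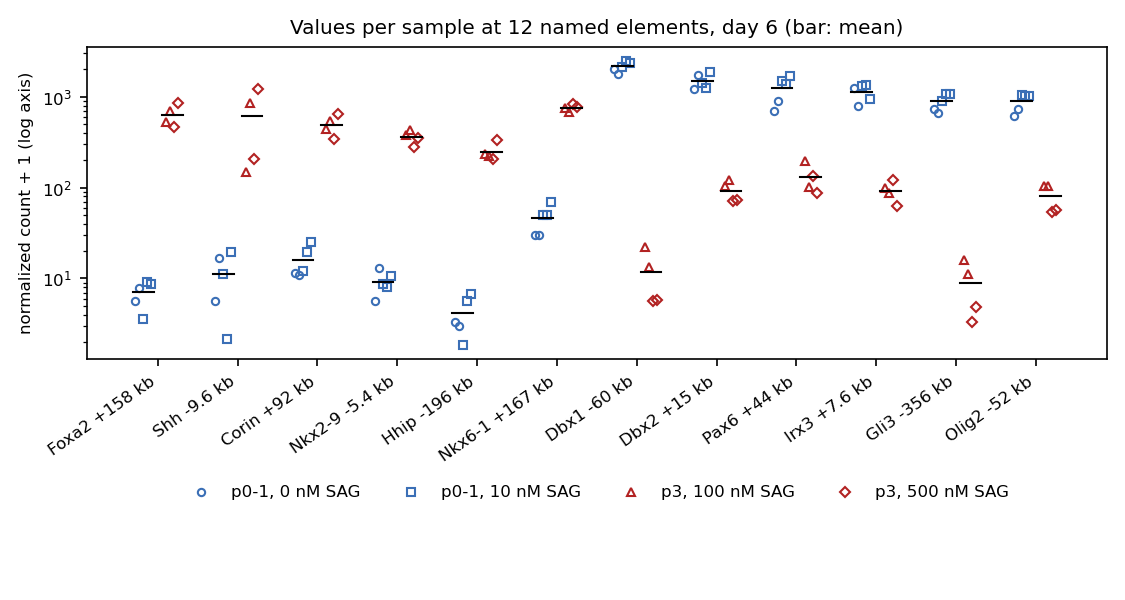
Normalized counts plus 1 (log axis) in each of the 5 p0-1 and 4 p3 samples of day 6 at 12 elements named in the text, with symbols for the SAG concentration and a bar at the mean. The p3 samples lie above every p0-1 sample at the 6 elements on the left and below every p0-1 sample at the 6 on the right, and the Shh element has the widest spread in p3, from 148 to 1229 counts.

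Floor plate and Foxa genes had the largest share of elements higher in p3 among the 16 gene lists examined. Of 62 tested elements at 11 of these genes, 24 were higher in p3 (38.7%) and 1 lower (1.61%), with a median log2 fold change of 0.99. The 24 lay at 10 genes, with 10 at Foxa2 and 3 at Shh. Both p3 samples numbered 3 were above both numbered 2 at 23 of the 24, and the list gave 19 higher elements within the samples numbered 1 or 2 and 27 within those numbered 3. Summed over all elements of the list, p0-1 samples held 21470 to 23966 normalized counts and p3 samples 38310 to 54142. Shh, Lmx1a, Ferd3l, Spon1 and Corin each had at least 1 element higher in p3, and Lmx1a is also on the dorsal neural tube list. The part that floor plate cells in the NKX2.2+ gate might have in these values was not tested.

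At Foxa2 the called elements lay on both sides of the gene. The element 157957 bp from the TSS held 4.71, 6.94, 2.54, 8.15 and 7.75 in p0-1 and 529, 696, 464 and 854 in p3 (log2 fold change 6.50, adjusted p = 9.28e-08). The element 44981 bp upstream held 9.42, 8.92, 4.23, 5.82 and 12.6 in p0-1 and 294, 973, 400 and 1427 in p3 (log2 fold change 6.40). Both p3 samples numbered 3 were the highest there, and limma voom on recovered reads did not call it (adjusted p = 0.0125). The promoter element held 290, 232, 235, 294 and 256 in p0-1 and 1240, 1927, 1268 and 2215 in p3 (log2 fold change 2.67). One element ran the other way, chr2:147980705-147981500, with 911, 1267, 1311, 1224 and 1627 in p0-1 and 251, 319, 170 and 326 in p3 (log2 fold change -2.25).

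The elements at Foxa2 differed in their levels on earlier days. Neuromesodermal progenitors (NMPs) at day 3 already held 1494 ± 212 counts (SD, n = 3) at the promoter, where p0-1 held 697 ± 283 at day 4 and 369 ± 43.2 at day 5 (SD, n = 6 each). In p3 it held 1298 ± 203 and 1336 ± 215 (SD, n = 5 each). At the distal element 157957 bp away, NMPs held 2.02 ± 1.41 and p3 held 92.4 ± 49.3 at day 4 and 426 ± 134 at day 5. Values of 3 other elements of the locus follow. The element 7072 bp from the TSS held 712 ± 38.2 in NMPs and 1317 ± 358, 1171 ± 374 and 1348 ± 272 in p3 at days 4, 5 and 6. The means in p3 on those days were 1454, 1478 and 1454 at the element 78227 bp away. At the element 9968 bp away they were 713, 522 and 334, lower on each later day.

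Elements at other floor plate genes were also higher in p3. Upstream of Shh, the ligand itself, an element 9551 bp from the TSS and annotated as intronic held 4.71, 15.9, 10.1, 1.16 and 18.4 in p0-1 and 148, 862, 203 and 1229 in p3 (log2 fold change 5.79, adjusted p = 0.000114). The spread in p3 was wide, both samples numbered 3 lay above those numbered 2, and the call was lost by voom (adjusted p = 0.0327). An intronic element of Corin, a membrane protease, held 10.6, 9.91, 11, 18.6 and 24.2 and 437, 534, 340 and 641 in p0-1 and p3 (log2 fold change 4.95). The Ferd3l promoter, of a bHLH TF of the floor plate, held 20, 44.6, 11, 25.6 and 32.9 and 585, 836, 545 and 921 in p0-1 and p3 (log2 fold change 4.70). Elements at Spon1, which encodes F-spondin, at Foxa1 and at Lmx1a had log2 fold changes of up to 4.62, 5.29 and 3.57. Those at Ntn1, the gene of netrin-1, were not called, and the one nearest its TSS held 1673 ± 305 (SD, n = 5) in p0-1 and 1750 ± 84.4 (SD, n = 4) in p3.

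Hedgehog pathway genes had called elements in both directions. Of 52 tested elements at 16 genes, 5 were higher in p3 (9.62%) and 7 lower (13.5%), with a median log2 fold change of -0.15. Higher elements lay at Disp1, which releases Shh from producing cells, with 3 of 5 tested, at Hhip, which binds Shh and limits its spread, and at Gli3. The Hhip element, 195689 bp upstream and with 3 FOX motifs in its central 300 bases, held 2.35, 1.98, 0.845, 4.66 and 5.81 in p0-1 and 236, 220, 208 and 330 in p3 (log2 fold change 5.92). Lower elements lay at the coreceptor genes Boc and Gas1, at Scube2, at another element of Hhip, and at 3 elements of Gli3, whose product is mainly a repressor when signal is low. The largest, 355573 bp upstream of Gli3, held 731, 665, 904, 1068 and 1057 in p0-1 and 14.8, 10.2, 2.31 and 3.88 in p3 (log2 fold change -6.65). Gas1 had 2009 ± 212 (SD, n = 5) against 257 ± 49 (SD, n = 4) at an element 30347 bp away.

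At Gli1 and Ptch1, which the pathway is known to induce, no tested element was called at day 6. The tested element nearest the TSS of Gli1 held 2238 ± 796 in p0-1 and 1777 ± 310 in p3 (log2 fold change -0.33, adjusted p = 0.448). Within p0-1 it held 1211 and 1655 in the 0 nM samples and 2548, 3202 and 2571 in the 10 nM samples. The one nearest the TSS of the receptor gene Ptch1 held 632 ± 154 and 1030 ± 163 (log2 fold change 0.70, adjusted p = 0.00926). It missed only the threshold of size. By limma on earlier days its log2 fold change was 1.63 at day 4 (adjusted p = 0.000111) and 1.48 at day 5 (adjusted p = 1.16e-06). The Gli1 element had 0.71 on both days (adjusted p = 0.0486 and 0.0167), and neither element was called on those days. At Smo, which encodes the target of SAG, the values were 1068 ± 117 and 1010 ± 69.8 (log2 fold change -0.08).

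**Figure D3:**
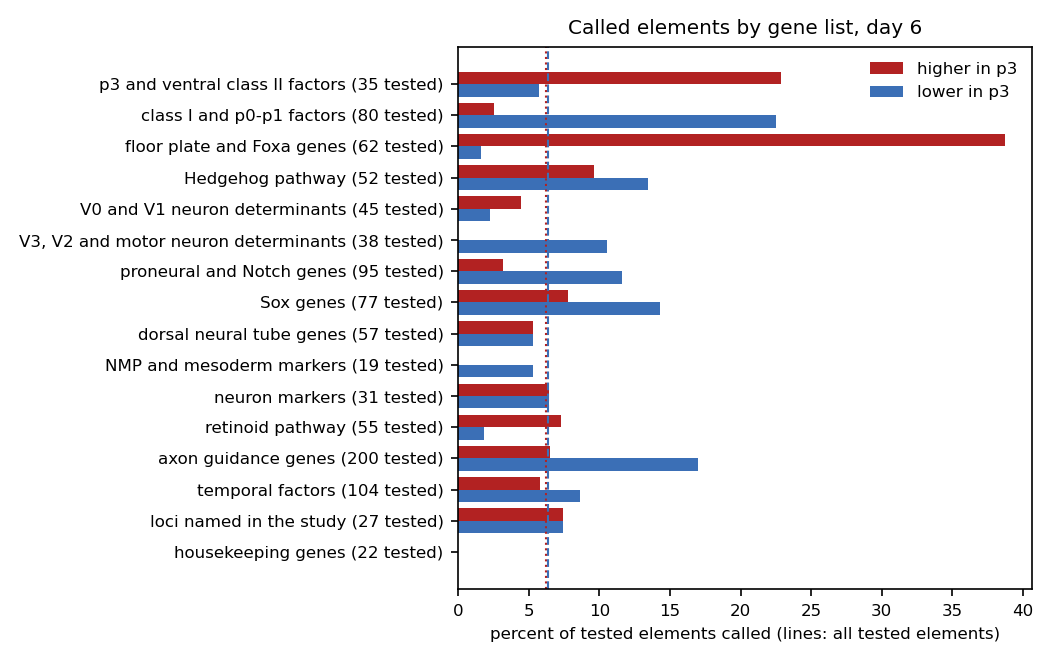
Percent of the tested elements annotated to each of 16 gene lists that were called higher (red) or lower (blue) in p3 at day 6, with the dotted and dashed lines at the shares over all tested elements, 6.21% and 6.39%. Floor plate and Foxa genes have the longest red bar (38.7%), class I and p0-p1 factors the longest blue bar (22.5%), and housekeeping genes have none.

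Among the remaining lists, axon guidance genes had 34 of 200 tested elements lower in p3 (17.0%) and 13 higher (6.50%), the lower ones at 17 genes. Robo1 and Robo2, which encode Slit receptors, and Epha5, an ephrin receptor, had 4 lower elements each, and Robo2 also had 1 higher. Proneural and Notch genes had 11 of 95 lower (11.6%) and 3 higher (3.16%), with 2 lower at the Notch effector Hes5. The Notch receptor gene Notch2 had 2 elements higher in p3. The larger held 40, 43.6, 23.7, 25.6 and 42.6 in p0-1 and 198, 432, 253 and 625 in p3 (log2 fold change 3.39). Sox genes had 11 of 77 lower (14.3%) and 6 higher (7.79%). At Sox6 3 elements were higher and 3 lower, and the extreme log2 fold changes were 5.20 at Sox6 and -4.68 at Sox3, a SOXB1 gene of progenitors.

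For genes of the neurons that these progenitors make, the shares called are read against 6.21% higher and 6.39% lower over all elements. For determinants of V0 and V1 neurons, 2 of 45 tested elements were higher in p3 (4.44%), at Pax8 and Foxd3, and 1 lower (2.22%). For V3, V2 and motor neurons 0 of 38 were higher and 4 lower (10.5%), 2 of them at Foxn4, a TF of the p2 domain, and 1 each at Sim1, a TF of V3 neurons, and Gata3. The Foxn4 element 5852 bp upstream held 133, 150, 530, 366 and 490 in p0-1 and 23.1, 14.2, 6.93 and 10.7 in p3 (log2 fold change -4.51, with an adjusted p of 0.0216 by voom), and 603 ± 197 (SD, n = 6) in p2. General neuron markers had 2 of 31 higher and 2 lower, 6.45% each way and near the shares over all elements. Their summed level was 13564 to 17021 counts in p0-1 and 14756 to 17127 in p3. NMP and mesoderm markers had 0 of 19 higher and 1 lower, at Tbx18, and sums of 6220 to 8232 and 6873 to 7684, against 21127 to 23235 in NMPs.

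Retinoid pathway genes had 4 of 55 elements higher in p3 (7.27%) and 1 lower (1.82%), against 6.21% and 6.39% of all tested elements. The share higher was thus near that over all elements. Of those higher, 3 were at Rarb, a retinoic acid receptor gene, the largest with 5.89, 5.95, 2.54, 1.16 and 5.81 in p0-1 and 143, 230, 159 and 358 in p3 (log2 fold change 5.41). The lower element was at Cyp26a1, which encodes an enzyme that degrades retinoic acid (log2 fold change -3.28). Within the samples numbered 1 or 2 the retinoid list had 1 higher and 2 lower elements, and within those numbered 3 it had 4 and 1. Temporal factors had 6 of 104 higher (5.77%) and 9 lower (8.65%), dorsal neural tube genes 3 of 57 in each direction (5.26%). These too were near the shares over all elements. Of 5 loci named in the study, a list chosen on these samples, Lmx1b had 2 of 6 tested elements higher, Rfx3 1 of 10 lower and Sp8 1 of 6 lower. Within the samples numbered 1 or 2 these loci had 0 higher and 2 lower elements, and within those numbered 3 they had 4 and 2. Only 3 of 19 elements at Gli2 and 2 of 8 at Prox1 passed the filter on the mean, and none of those was called. The study describes p3-specific accessibility at an element in a Gli2 intron and at elements of Prox1, Lmx1b and Rfx3. Those elements were not identified here, so these counts do not tell whether they differed. Housekeeping genes had 0 of 22 called in either direction.

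The few promoters with large differences were chosen after their values were seen, as the 5 largest each way. The promoter element with the largest excess in p3 was annotated to Acvr1, a BMP receptor gene, and held 21.2, 28.7, 12.7, 19.8 and 33.9 in p0-1 and 604, 815, 588 and 825 in p3 (log2 fold change 4.87). Ferd3l, 1700054K19Rik, Tm4sf1 and Kctd14 followed, with 3.80 to 4.70. On the other side were Mtm1, Clec2g, Cyp2c39, Maob and Folh1, with log2 fold changes of -4.42 to -3.21. At the promoter of Maob, which encodes monoamine oxidase B, p0-1 held 291, 367, 384, 384 and 443 and p3 36.3, 49.8, 43.9 and 23.3.

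Short motifs were counted in the central 300 bases of each element, as a description. FOX matches, TGTTTAC or TGTTTGC on either strand, were present in 29.5% of elements higher in p3, 8.98% of those lower and 9.30% of all tested. Among tested elements with 0 matches, 4.82% were higher in p3 and 6.41% lower. With 1 match 17.4% were higher and 6.45% lower, and among the 256 with 2 or more, 44.9% were higher and 3.13% lower. Of elements called higher in p3 at day 4 and also tested at day 6, 47.5% of 177 had a FOX match, at day 5 34.1% of 692.

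The other motifs showed smaller gaps between the called sets and all tested elements. The SOX motif was in 24.1% of elements lower in p3, 19.1% of those higher and 14.7% of all tested. The POU octamer was in 3.70%, 1.88% and 1.79%, and the NKX2 motif, TCAAGTG or TTAAGTG, in 10.3%, 7.12% and 5.92%. The homeodomain core TAATTA was about as frequent in both called sets, 9.65% of the lower and 10.1% of the higher, against 5.62% overall. The TEAD motif ACATTCC was in 9.64% of elements higher in p3, 6.15% of those lower and 4.99% of all tested, and the RFX half-site GTTGCCA in 7.17%, 3.55% and 4.51%. The E-boxes CAGCTG and CAGATG were in 44.1%, 37.5% and 33.9%. The GLI motif GGGTGGTC was in 0.791%, 0.576% and 1.07%, the PAX6 motif TTCACGC in 0.495%, 1.25% and 1.45%, and AGGTGGC, a part of the CTCF site, in 3.12%, 4.08% and 6.50%. All were searched on both strands, and called elements were lower in GC than the rest.

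**Figure D4:**
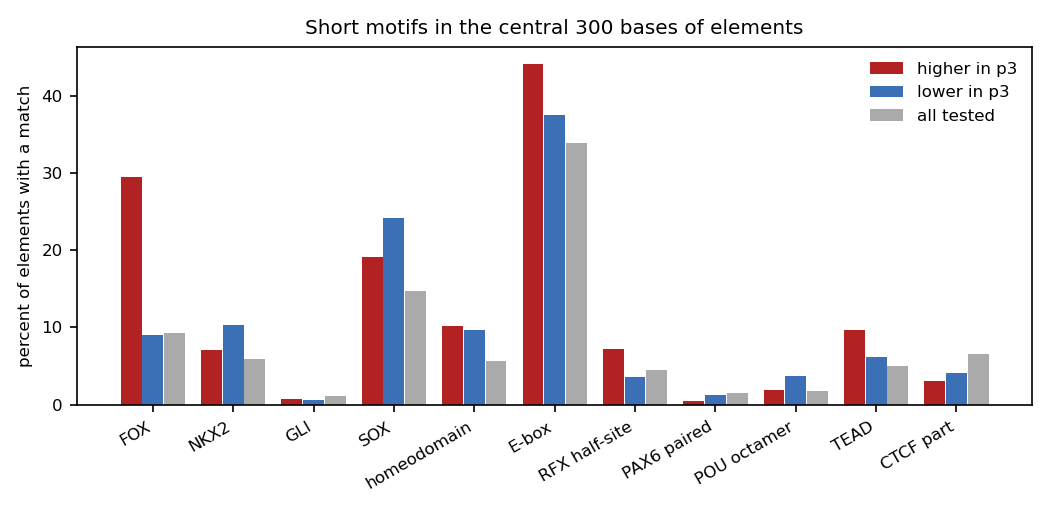
Percent of elements with a match to each of 11 short motifs in the central 300 bases, for elements called higher in p3 (red), called lower (blue) and all 32580 tested (grey). The FOX motif shows the widest gap, 29.5% of the elements higher in p3 against 9.30% of all tested.

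The intermediate populations of day 6 lay nearer p0-1 than p3 at most called elements. On the log2 scale of mean counts, where p0-1 is 0% and p3 is 100%, p2 lay at a median of 23.7% and pMN at 21.6% over elements higher in p3. Over the higher set, sample medians ran from 35.9 to 114 counts in p2 and from 40.8 to 87.6 in pMN. In p0-1 they ran from 28.7 to 46.6, so the position of p2 at this set rests on unlike samples. For elements lower in p3, p2 lay at 8.52% and pMN at 23.5%. Beyond the midpoint towards p3 were 170 of 2022 higher elements in p2 (8.41%) and 392 in pMN (19.4%). Among the 2082 lower elements 47 (2.26%) in p2 and 295 (14.2%) in pMN were past it.

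To see when these differences arose, the same contrast was made at days 4 and 5, each with 6 p0-1 and 5 p3 samples. At day 4, 456 of 29420 elements were called (1.55%), 241 higher in p3 (0.819%) and 215 lower (0.731%). The near-even split at day 4 did not hold by voom, with 227 higher and 71 lower, from 10 and 100 nM only, with 114 and 44, or with no filter, with 2186 and 934. At day 5, 2329 of 31572 were called (7.38%), 740 higher (2.34%) and 1589 lower (5.03%). Of the 2022 elements higher in p3 at day 6, 671 passed the filter on the mean at day 4 and 155 were called higher, and 1255 passed at day 5 with 660 called. Of the 2082 lower elements, 825 passed at day 4 with 158 called lower, and 1673 passed at day 5 with 1246 called. The number called in the opposite direction was 0 on both days.

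The interaction of cell type and day between days 4 and 6 was called at 2995 of 30970 elements (9.67%), 1533 in favor of p3 (4.95%) and 1462 in favor of p0-1 (4.72%). By voom the split was 876 and 381, with no filter 8513 and 5465, from 0 and 500 nM only 166 and 240, and from 10 and 100 nM only 397 and 600. Of the elements higher in p3 at day 6, 714 of the 1234 tested were called in favor of p3, and of those lower, 931 of 1427 were called in favor of p0-1. These elements were chosen by their difference in the same day 6 samples, which favors a growing difference, so both counts are a description. With means per replicate number, voom or single pairs of SAG concentrations the total was lower, 406 to 1456 elements.

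The higher and lower sets were followed from NMPs onward. Because the sets were chosen with the day 6 samples, these levels describe them and test nothing. The median element of the higher set held 11.5 counts in NMPs, and in p3 99.6 at day 4, 210 at day 5 and 323 at day 6. In p0-1 it held 34.4, 45.0 and 39.3. The median element of the lower set held 8.62 in NMPs, and in p0-1 98.6, 280 and 319 over the same days, against 38.0, 45.0 and 36.6 in p3. Levels in p2 followed p0-1 at this set, with 112, 262 and 283, and those in pMN were 96.0, 190 and 199. Over all tested elements every population and day lay between 258 and 342.

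**Figure D5:**
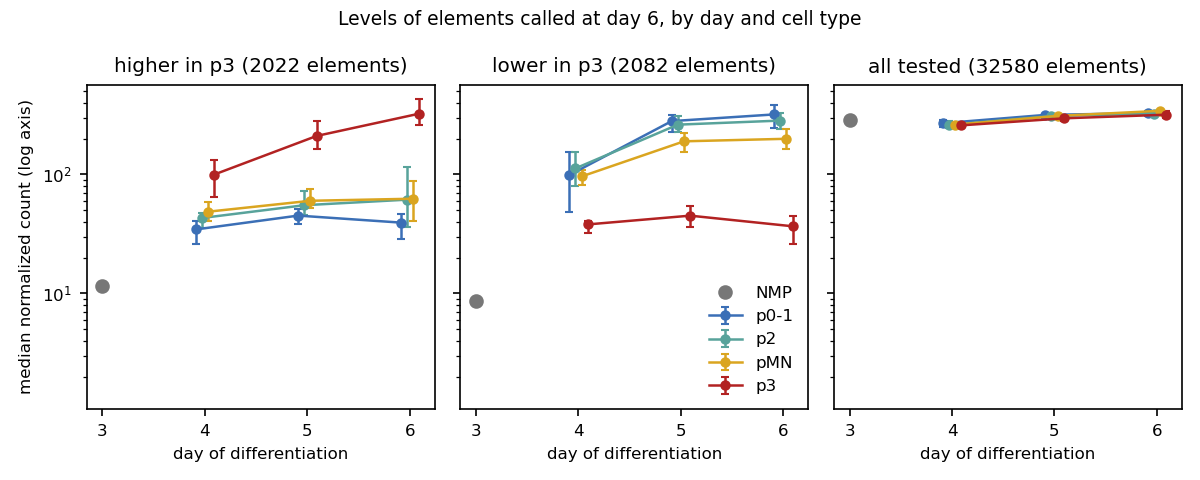
Median normalized count (log axis) by day and population over the elements called higher in p3 at day 6 (left), lower (middle) and all tested (right), with bars from the lowest to the highest sample median. The left set climbs in p3, from 99.6 at day 4 to 323 at day 6, and the middle set climbs in p0-1, p2 and pMN but stays at 36.6 to 45.0 in p3.

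Differences between SAG concentrations within a population are given first for all 32580 tested elements. The median absolute log2 difference was 0.18 between 10 and 0 nM within p0-1 and 0.12 between 500 and 100 nM within p3, against 0.30 to 0.36 across populations in the 4 pairs of concentrations. Differences above 2 in size were found at 110 elements within p0-1 and 20 within p3. The called elements were chosen for a difference between populations, so for them a larger difference across than within populations was fixed by the choice. Over elements higher in p3, the median log2 difference between 500 and 100 nM was 0.12 within p3, and between 10 and 0 nM it was -0.13 within p0-1. The median absolute differences there were 0.17 and 0.44. Over elements lower in p3 the medians were -0.52 and 0.43, and the median absolute differences 0.52 and 0.51. Across populations, the nearest concentrations, p3 at 100 nM over p0-1 at 10 nM, gave medians of 3.05 and -3.00, and the farthest, 500 nM over 0 nM, gave 2.96 and -3.15. The number of elements that differed by more than 2 on this scale was 0 of the higher and 20 of the lower set within p3, and 16 and 6 within p0-1.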

How the data were processed

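The series comprises 67 samples assayed by CaTS-ATAC. The authors ran nf-core/atacseq 1.2.0 on mm10, called peaks with MACS, counted reads in consensus elements with featureCounts, and deposited values normalized by DESeq2 size factors and transformed by its variance stabilizing transformation, a log2-like scale. Elements were annotated by the authors to the nearest TSS with HOMER. The transformation was inverted to normalized counts (largest distance of recovered reads from whole numbers 5.98e-11).

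Elements with a mean above 100 were compared with limma 3.58.1 (R 4.3.3) with a variance trend, two-sided, with Benjamini-Hochberg adjustment over all elements tested. On simulated data the day 6 test recovered 91 of 100 elements changed 6-fold and 90 of 100 changed 10-fold, with 0 false calls among 32242. The simulated samples were drawn independently, with no effect of SAG and none shared within a replicate number. These rates therefore do not give the error rate in the real samples. Samples of a replicate number at 2 SAG concentrations counted separately, so p-values mix the spread within and between differentiations of 1 line. At day 6 the p3 samples carried only the replicate numbers 2 and 3. On means per cell type, day and replicate number, 4019 elements were called at day 6.

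Deviations from condition means correlated at 0.244 to 0.467 (median 0.434) between the 8 same-numbered pairs of samples. The 12 differently numbered pairs gave -0.467 to 0.418 (median -0.422). Where a condition held only a pair of samples, their deviations were mirror images, so these correlations are not independent. Deviations from cell type means gave -0.222 to 0.580 (median 0.362) for the same number and -0.569 to 0.492 (median -0.380) for different numbers. The ranges overlapped, so the values did not settle the pairing. That the numbers in the titles pair samples was taken as an assumption. Numbers in the descriptions differ for some samples. The main model had no block.

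Members and gene lists were chosen with earlier results of these data known. Named elements were the 8 largest calls each way, and for listed genes the largest call or the tested element nearest the TSS. The Nkx2-2 overlap, the promoters, the remaining Foxa2 elements, and the subsets by replicate number were added after values were seen. Some marker genes are not reported here. Alternatives covered the block, filter, thresholds, pseudocount, scaling, voom, SAG subsets and leaving out each sample.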

Additional observations from a re-analysis of the deposited data

Results flagged for a closer look

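Among the named elements reported here, 166 groups of 4 or 5 samples were examined for a sample far from the rest of its own group, and 4 had one (a gap over 0.829 or 0.71 of the range), where chance alone flags about 1 in 20. Near D030024E09Rik, p0-1 at 10 nM replicate 3 held 21.3 normalized counts and the others 5.82 to 8.45. At the promoter-TSS element inside Nkx2-2, p3 at 500 nM replicate 3 held 3203 counts and the others 3829 to 3954. At Cyp2c39, p3 at 100 nM replicate 2 held 18.14 and the others 8.08 to 9.16. At the Foxa2 element 25185 bp from the TSS, p0-1 at 10 nM replicate 3 held 194.6 and the others 133 to 143. The cause was not tested.

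The difference between p3 and p0-1 changed from day 4 to day 6, by limma's interaction term, at 40 of the 61 reported called named elements that entered that test, against 9.67% of all elements tested. These elements were chosen by their difference in the same day 6 samples, which favors a growing difference, so the count is a description. Values are changes of p3 minus p0-1 on the deposited log2-like scale. In favor of p3 they were Me3 at 4.33, Mir466f-4 at 4.07, Shh (9551 bp from the TSS) at 3.49, Foxa2 (44981 bp from the TSS) at 3.35, Nkx6-1 at 3.25, Foxa2 (157957 bp from the TSS) at 3.13, 1700054K19Rik at 2.72, Foxa2 (32248 bp from the TSS) at 2.65 and Acvr1 at 2.52. Further values above 0 were Ferd3l at 2.27, Foxa2 (78227 bp from the TSS) at 2.26, Corin at 2.24, D030024E09Rik at 2.19, Pax8 at 2.02, Notch2 at 1.77, Shh (2800 bp from the TSS) at 1.76, Foxa2 (16960 bp from the TSS) at 1.70 and Foxa2 (1458 bp from the TSS) at 1.61. Further values above 0 were Nr2f1 at 1.57, Lmx1b at 1.55 and Foxa2 (25185 bp from the TSS) at 1.14. In favor of p0-1 they were Lrrtm1 at -4.65, Robo2 at -4.54, Gm20755 at -3.62, Gli3 at -3.24, 1700017J07Rik at -3.20, Dbx1 at -2.92, Irx6 at -2.74, Folh1 at -2.37 and Sox3 at -2.37. Further values below 0 were Suclg2 at -2.35, Olig2 at -2.19, Scube2 at -1.96, Rfx3 at -1.91, Maob at -1.66, Sp8 at -1.62, Irx3 at -1.57, Dbx2 (the element starting at chr15:95652832, not the intronic one described above) at -1.52 and Prdm12 at -1.47. Further values below 0 were  and Prdm13 at -1.24.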

How the results depend on the processing

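The day 6 count of 4104 kept within 1.5 times under most alternatives, among them the replicate block (4112), voom (3854) and all 67 samples in the fit (4124). It was 17101 with no filter on the mean and 7728 with a log2 fold change above 1. At day 5 these gave 11245 and 5872 against 2329. At day 4 they gave 3120 and 1918 against 456, with 298 by voom, 807 from 0 nM p0-1 and 500 nM p3 only and 158 from 10 and 100 nM only. The change between days, 2995 elements, was 13978 with no filter, 1456 on means per cell type, day and replicate number, 1257 by voom, 406 from 0 and 500 nM only and 997 from 10 and 100 nM only. Leaving out 1 sample gave 3503 (without p3 500 nM replicate 3) to 4464 (without p0-1 0 nM replicate 3) elements at day 6, 2265 to 2422 at day 5, 380 to 556 at day 4 and 2223 to 3221 for the change between days. Without p3 500 nM replicate 3, 1372 elements were higher in p3 at day 6 against 2022. By direction, leaving out 1 sample gave 517 to 847 higher and 1445 to 1778 lower at day 5, against 740 and 1589. At day 4 it gave 161 to 284 higher and 147 to 281 lower, against 241 and 215. The replicate block moved no total by more than 1.5 times, giving 3276 for the change between days. Of 86 named called elements, 70 kept their call under all 25 day 6 alternatives and 16 lost it under some, with 0 reversed. The near-even split at day 6 became 9582 higher and 7519 lower with no filter. From 10 and 100 nM only it was 1848 and 2324, and from 0 and 500 nM only 1543 and 1362. The split at day 5 moved from 740 higher and 1589 lower to 5198 and 6047 with no filter. The cause was not tested. The fold, pseudocount and deposited-scale alternatives do not apply to the change between days.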
